A study of Mus musculus with 13 samples.

Results

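The 9 alpha-defensin genes described here, Defa3, Defa5, Defa17, Defa20, Defa21, Defa22, Defa23, Defa24 and Defa26, were taken by gene symbol from all 13 expression tables, which hold 35791 genes each. Alpha-defensins are small cationic peptides rich in cysteine that Paneth cells, the granular secretory cells at the base of small intestinal crypts, store in granules and release into the crypt lumen. There they kill bacteria and shape the gut microbiota. In the mouse the precursors are cleaved to the active peptides by matrilysin, the product of Mmp7, and the genes form a cluster of many near-identical copies.

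RNA was sequenced from Paneth cells and from intestinal stem cells, which neighbour each other at the crypt base. All mice carried the Lgr5-eGFP-IRES-CreERT2 reporter, in which the promoter of Lgr5, a gene of crypt stem cells, drives green fluorescent protein and an inducible Cre, on a C57Bl6/SV129 background. Young mice were 2 to 3 months old and aged mice 20 to 22 months old, no treatment is labelled, and all are labelled male. Crypts came from the proximal small intestine after villi were removed. Paneth cells gave 4 libraries at young and 3 at old age, and stem cells 3 at each. Nothing in the labels says whether replicates came from separate mice, so p-values speak only of the spread over these libraries, part of which may be technical. The Paneth libraries were made with a low-input kit and the stem libraries by another protocol, so effects of kit and of cell type cannot be told apart.

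Paneth libraries held 4210439 to 8612228 reads and stem libraries 8398966 to 19740104 reads. In Paneth libraries 26.7% to 66.2% of reads lay on 3 other rows (Esp38, Lars2 and Gm20594), against 4.03% to 10.3% in stem libraries. Levels are therefore given as CPM, reads scaled to a common library size, with TMM, a method that sets libraries level on the bulk of genes. The sex-linked genes went against the label in 12 libraries: Xist, which is transcribed from the inactive X chromosome, was at 188.1 to 4298 CPM there (here of all reads, unscaled), with 4 Y-linked genes (Ddx3y, Eif2s3y, Kdm5d and Uty) at a summed 3.37 to 21.6 CPM. The library labelled young stem 1 had 16.97 CPM of Xist and 214.8 CPM of the Y-linked genes. Results that use it are given without it where its absence changed a call or a direction.

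All 9 genes lie on chromosome 8 within a span of 709.9 kb (GRCm38.p6, chr8:21025545-21735471), each on the plus strand and with 2 exons. In order they are Defa21 (chr8:21025545-21026517), Defa23 (chr8:21055040-21056016), Defa22 (chr8:21162277-21163249), Defa3 (chr8:21287409-21288377), Defa5 (chr8:21297394-21298375), Defa20 (chr8:21509258-21510237), Defa26 (chr8:21618168-21618972), Defa17 (chr8:21655767-21656736) and Defa24 (chr8:21734494-21735471). The tables also held 30 other rows that RefSeq names alpha-defensins or alpha-defensin pseudogenes. Of these, 15 carried another symbol in the files, 11 had no reads in any library, and 18 had reads in Paneth libraries. The 9 genes held 55.3% of all alpha-defensin reads of the Paneth libraries, so the values below cover that part of the family.

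By coding sequence (GENCODE M21, GRCm38) the genes fell into sets, a grouping made after the values had been seen. Defa3, Defa17, Defa23, Defa24 and Defa26 were 89.4% to 100% identical to each other, and the coding sequences of Defa3 and Defa17 were the same. Defa20, Defa21 and Defa22 were 89.2% to 99.3% identical to each other. Identity across sets, and of Defa5 to any other of the 9, was 80.7% to 85.5%. The sets are not blocks of neighbours: Defa23 lies between Defa21 and Defa22, and Defa20 between Defa5 and Defa26.

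The last 105 coding bases of 8 of the 9 genes are shown because the sets, and the copies that share sequence, can be read from them. They encode the C-terminal part, where the mature peptide lies, and end in the stop codon. Each holds 6 cysteine codons in frame. Capitals mark bases that differ from Defa24 in Defa3, Defa23 and Defa26, and from Defa21 in Defa22. Defa17 (chr8:21656537-21656641) has the bases of Defa3.
Defa24, chr8:21735273-21735377, plus strand: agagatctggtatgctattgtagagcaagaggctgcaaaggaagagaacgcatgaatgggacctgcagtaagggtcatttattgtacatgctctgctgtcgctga
Defa3, chr8:21288179-21288283, plus strand: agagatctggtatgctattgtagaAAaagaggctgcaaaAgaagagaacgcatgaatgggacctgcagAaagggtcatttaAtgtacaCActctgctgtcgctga
Defa23, chr8:21055817-21055921, plus strand: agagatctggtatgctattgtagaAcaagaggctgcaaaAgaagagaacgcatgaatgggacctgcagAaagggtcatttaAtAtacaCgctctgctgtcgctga
Defa26, chr8:21618778-21618882, plus strand: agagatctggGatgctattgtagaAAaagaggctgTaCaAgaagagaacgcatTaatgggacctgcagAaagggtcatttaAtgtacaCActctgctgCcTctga
Defa21, chr8:21026319-21026423, plus strand: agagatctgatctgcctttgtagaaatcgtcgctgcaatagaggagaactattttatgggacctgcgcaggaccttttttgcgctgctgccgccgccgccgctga
Defa22, chr8:21163051-21163155, plus strand: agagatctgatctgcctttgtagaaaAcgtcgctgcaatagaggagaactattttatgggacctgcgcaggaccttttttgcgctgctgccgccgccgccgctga
Defa20, chr8:21510039-21510143, plus strand: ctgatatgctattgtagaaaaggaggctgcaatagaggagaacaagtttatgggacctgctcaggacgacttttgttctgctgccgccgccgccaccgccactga
Defa5, chr8:21298177-21298281, plus strand: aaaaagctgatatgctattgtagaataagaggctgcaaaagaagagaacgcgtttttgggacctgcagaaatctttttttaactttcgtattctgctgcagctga
Defa3 and Defa17 differ from Defa24 at 7 of these bases, Defa23 at 6 and Defa26 at 13, while Defa22 differs from Defa21 at 1.

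**Figure D1:**
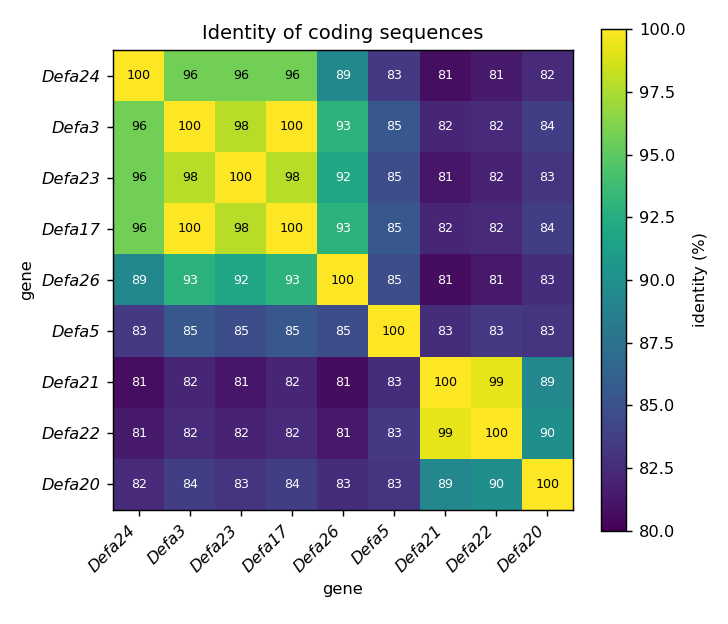
Pairwise identity of the coding sequences of the 9 genes in percent, as a colour and a printed whole number, with genes on both axes. Defa3 and Defa17 are at 100%, Defa21 and Defa22 at 99.3%, and all pairs across the sets lie between 80.7% and 85.5%.

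These identities bear on what a row measures. Each stretch of 50 bases in a transcript was looked up in the transcripts of all other genes. The share found there was 100% for Defa20, 99.7% for Defa5, 94.8% for Defa23, 92.2% for Defa3 and 92.0% for Defa17. It was 74.9% for Defa22, 72.9% for Defa21, 40.2% for Defa26 and 28.1% for Defa24. Values that are not whole numbers made up 83.8% of the 117 values of the 9 genes. Over all rows they made up 60.7% of values of 10 or more. How they arose is not stated in the sources used here. By the shared stretches Defa24 has the least in common with transcripts of other genes. The split between Defa21 and Defa22, or between Defa3 and Defa17, is uncertain. So is that of Defa5 and Defa20 with genes outside the 9. Defa5 shared most with Defa34 (78.6% of its stretches), and Defa20 with Defa32 (86.7%).

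Promoters of 4 of the 9 genes (Defa20, Defa21, Defa22 and Defa23) were in the RefSeq table (GRCm38.p6). The 250 bases before the start site are shown for 3 of them because these genes shared their pattern of motifs. Capitals mark TCAAAG, which is CTTTGA on the other strand, the core that TCF/LEF factors of Wnt signalling bind, and TATAAA, the TATA box.
Defa21, chr8:21025295-21025544, plus strand: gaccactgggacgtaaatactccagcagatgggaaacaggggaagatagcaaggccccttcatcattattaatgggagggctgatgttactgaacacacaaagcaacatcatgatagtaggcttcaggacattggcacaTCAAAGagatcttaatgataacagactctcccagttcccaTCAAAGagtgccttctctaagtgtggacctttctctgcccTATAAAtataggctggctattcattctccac
Defa20, chr8:21509008-21509257, plus strand: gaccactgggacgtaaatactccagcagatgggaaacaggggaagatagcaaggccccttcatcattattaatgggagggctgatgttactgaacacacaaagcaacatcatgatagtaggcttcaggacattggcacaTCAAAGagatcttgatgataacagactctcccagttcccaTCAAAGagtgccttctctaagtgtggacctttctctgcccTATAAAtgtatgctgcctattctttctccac
Defa23, chr8:21054790-21055039, plus strand: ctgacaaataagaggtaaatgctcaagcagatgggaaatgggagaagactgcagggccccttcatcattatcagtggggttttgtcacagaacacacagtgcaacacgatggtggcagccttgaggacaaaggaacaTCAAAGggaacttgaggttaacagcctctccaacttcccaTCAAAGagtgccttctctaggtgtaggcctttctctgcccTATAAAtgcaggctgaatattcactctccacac
The promoter of Defa22 (chr8:21162027-21162276) was identical to that of Defa21, Defa20 was 98.0% identical to both, and Defa23 78.0% to each of the others. All 4 held CTTTGA at 2 places, whose first bases lay 111 and 71 bases before the start (113 and 73 in Defa23), and TATAAA at 1, 31 bases before the start (33 in Defa23). Both strands were searched, and the motifs do not overlap. Of 32851 promoters of the same length, 13.8% held CTTTGA at least once, 1.37% at least 2 times, and 12.4% held TATAAA. A match is a description of letters and does not show binding.

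The amount of alpha-defensin RNA varied widely between Paneth libraries. Summed, the 9 genes took 3.59%, 1.19%, 2.23% and 0.272% of the reads of young Paneth libraries 1 to 4. In aged Paneth libraries 1 to 3 they took 1.46%, 0.236% and 0.694%. Stem libraries were far lower, with 0.126%, 0.181% and 0.149% in young and 0.184%, 0.170% and 0.0454% in aged ones. All Paneth libraries lay above all stem libraries, while young and aged Paneth libraries overlapped. In bulk samples fewer Paneth cells and less RNA per cell cannot be told apart.

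Per kilobase of transcript, the scale on which genes can be compared, Defa24 was the highest in young Paneth cells, with a mean level of 29585 CPM per kb. Defa3 followed at 18031 and Defa23 at 14273 CPM per kb. The other genes were far below, with Defa5 at 2420, Defa21 at 1645, Defa17 at 1338, Defa26 at 849.8, Defa22 at 799.4 and Defa20 at 413.6 CPM per kb. The libraries of neighbours in this order overlapped throughout, and the order of some neighbours changed between libraries. Defa26 and Defa22 were at 1430 and 1192 CPM per kb in young library 1, and at 984.1 and 1453 in young library 2. The cause of the overlap was not tested. In aged Paneth cells Defa24, Defa3 and Defa23 kept the first places, at 10401, 6069 and 4358 CPM per kb. Below them the order differed: Defa17 came next at 478.3, ahead of Defa5 at 309.8, Defa26 at 267.0 and Defa21 at 245.1 CPM per kb. Defa22 at 71.4 and Defa20 at 47.4 CPM per kb were last.

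Defa24 was at 23396, 11883, 12434 and 1872 CPM in young Paneth libraries 1 to 4 and at 8472, 1108 and 3493 CPM in aged Paneth libraries 1 to 3. Young library 4 lay between aged libraries 2 and 3, so the ages overlapped. Stem levels of Defa24 were 510.9, 605.0 and 487.3 CPM in young and 665.7, 643.5 and 167.3 CPM in aged libraries.

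Defa3, whose coding sequence Defa17 shares, was at 13095, 7429, 7784 and 1264 CPM in young Paneth and at 4908, 586.0 and 1971 CPM in aged Paneth libraries. Defa23 had 11138, 5569, 5696 and 1062 CPM in young and 3446, 510.6 and 1417 CPM in aged Paneth libraries. Both repeated the order of libraries seen for Defa24 at the low end, with young library 4 inside the aged range. Defa17 was at 88.2 to 965.0 CPM in young and 44.2 to 383.6 CPM in aged Paneth libraries, and Defa26 at 48.2 to 531.9 and 18.6 to 207.1 CPM. These overlapped as well.

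Defa5 was at 1754, 999.2, 770.2 and 115.3 CPM in young Paneth libraries and at 223.4, 44.0 and 82.0 CPM in aged ones. Only young library 4 fell within the aged range. Defa21 had 1219, 976.0, 492.3 and 62.6 CPM in young and 220.5, 29.3 and 57.6 CPM in aged Paneth libraries. For Defa22 the values were 499.5, 608.9, 200.9 and 30.3 CPM in young and 65.0, 8.52 and 16.2 CPM in aged Paneth libraries. Defa20, the lowest of the 9, was at 212.8, 395.6, 86.5 and 8.31 CPM in young and 48.4, 4.26 and 7.78 CPM in aged Paneth libraries. For each of the 9 genes, and not only for these 4, young libraries 1 to 3 lay above every aged library, and young library 4 did not.

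**Figure D2:**
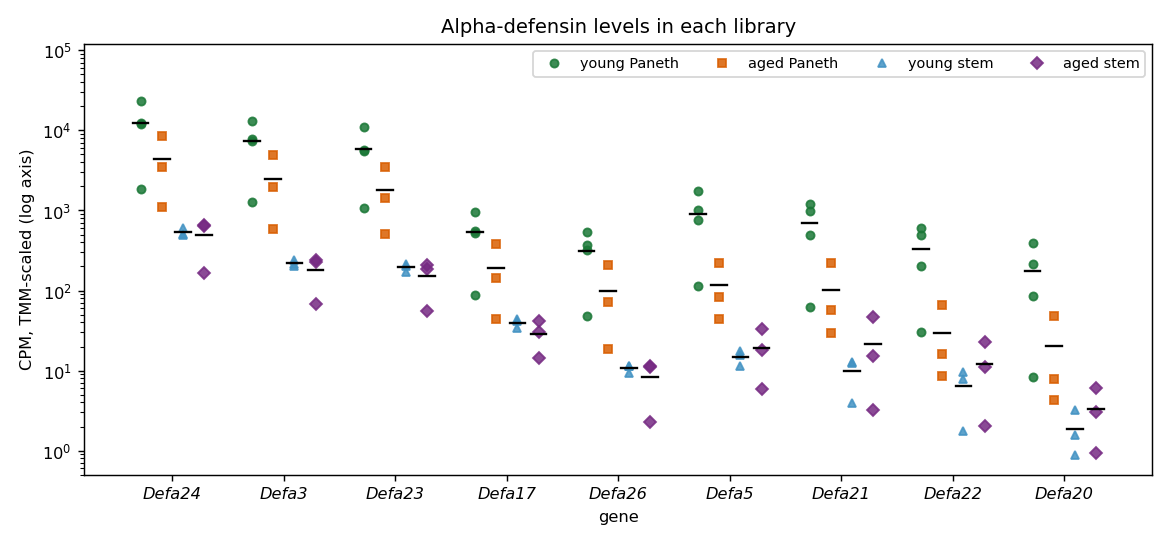
Level of each gene in each of the 13 libraries, as TMM-scaled CPM on a log axis, with 1 symbol per library, a colour and shape per group, and a black bar at the group mean. Every young Paneth point lies above every stem point of the same gene at young age, and for each gene the lowest young Paneth library falls within the range of the aged ones.

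Age in Paneth cells was tested with edgeR's quasi-likelihood test across 14106 genes. All 9 genes had lower estimates in aged Paneth cells, and 0 of 9 passed the threshold of an adjusted p (Benjamini-Hochberg) under 0.05, which 0.0142% of all genes tested passed. The log2 changes ran from -1.47 ± 0.82 (approximate SE, here and below) for Defa17 to -3.50 ± 1.03 for Defa22, with a median of -1.69, beside -0.0018 over all genes tested. Adjusted p-values of the 9 lay between 0.528 and 0.663. At an unadjusted p under 0.05 there were 4 (Defa5, Defa20, Defa21 and Defa22), where 4.52% of all genes were lower at that level. DESeq2 called 2 of 9, Defa5 (adjusted p 0.0201) and Defa22 (adjusted p 0.0134), among 114 genes in all. The groups of all 9 overlapped, while those of 8.0% of genes tested did not.

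The set of Defa20, Defa21 and Defa22, with Defa5, had the larger estimates. Defa20 differed by -3.16 ± 1.20 and Defa21 by -2.74 ± 0.98 on the log2 scale, and Defa5 by -2.95 ± 0.88. Defa3 differed by -1.55 ± 0.89, Defa23 by -1.69 ± 0.86, Defa24 by -1.49 ± 0.92 and Defa26 by -1.66 ± 0.86. These sizes rest on single libraries: the median of the 9 was -2.79 when aged Paneth 1 was left out, -1.32 when young Paneth 1 was and -1.27 when aged Paneth 2 was. With library totals in place of TMM scaling the median of all genes moved to 0.57, with 6 genes called higher and 6 lower (0 and 2 with TMM), and the median of the 9 was -1.27.

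The share that each gene takes of the reads of all 9 is set within a library. Measured this way, the mix of genes differed between the ages. It is described without a test. Defa5 made up 3.32%, 3.47%, 2.72% and 2.54% of the reads of the 9 genes in young Paneth libraries 1 to 4 and 1.24%, 1.87% and 1.13% in aged ones. Every young library lay above every aged one, and the means were 3.01% ± 0.455 (SD, n = 4) and 1.41% ± 0.398 (SD, n = 3), a ratio of 2.13. How reads were split between Defa5 and its near copies outside the 9 is uncertain.

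Defa22 made up 0.946%, 2.12%, 0.710% and 0.663% in young and 0.361%, 0.366% and 0.223% in aged Paneth libraries. For Defa21 the shares were 2.31%, 3.39%, 1.74% and 1.37% in young and 1.23%, 1.24% and 0.793% in aged ones. Neither overlapped between the ages, with ratios of means, young over aged, of 3.50 and 2.03. Defa20 had 0.403%, 1.37%, 0.306% and 0.186% in young and 0.269%, 0.177% and 0.108% in aged libraries, which overlapped. Summed, Defa20, Defa21 and Defa22 held 3.88% ± 2.09 (SD, n = 4) in young and 1.59% ± 0.404 (SD, n = 3) in aged Paneth libraries, without overlap. Young library 2, with 6.88%, stood highest. Since the sum over a set does not depend on how reads were split inside it, the uncertain split of Defa21 and Defa22 does not enter this value. The split of reads between Defa20 and its near copies outside the sum is also uncertain, and that split does enter this value.

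Defa24 went the other way, again without overlap. It made up 44.3%, 41.3%, 43.9% and 41.1% in young and 47.1%, 47.1% and 48.1% in aged Paneth libraries. Shares are parts of 1 total, so a fall in the share of some genes raises that of the rest. The level of Defa24 had a lower estimate in aged Paneth cells (log2 change -1.49). Defa3 was at 26.5% ± 1.41 and 26.5% ± 1.35, Defa23 at 20.98% ± 1.73 and 20.1% ± 1.37, and Defa17 at 1.88% ± 0.0509 and 1.99% ± 0.132 (SD, n = 4 and 3). Defa26 was at 1.12% ± 0.114 and 0.980% ± 0.181. The shares of these 4 overlapped between the ages. The shares of 4 of the 9 genes (Defa5, Defa21, Defa22 and Defa24) thus did not overlap; the measure is not defined for other genes, so this count has no background share. In stem cells the shares of 2 genes did not overlap between the ages: Defa23 was at 18.8% ± 1.23 in young and 16.7% ± 1.25 in aged libraries, and Defa26 at 1.04% ± 0.0930 and 0.857% ± 0.127 (SD, n = 3 each). Defa20, Defa21 and Defa22 summed to 1.72% ± 0.938 in young and 3.51% ± 2.28 in aged stem libraries, with overlap and with the higher mean in aged cells.

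**Figure D3:**
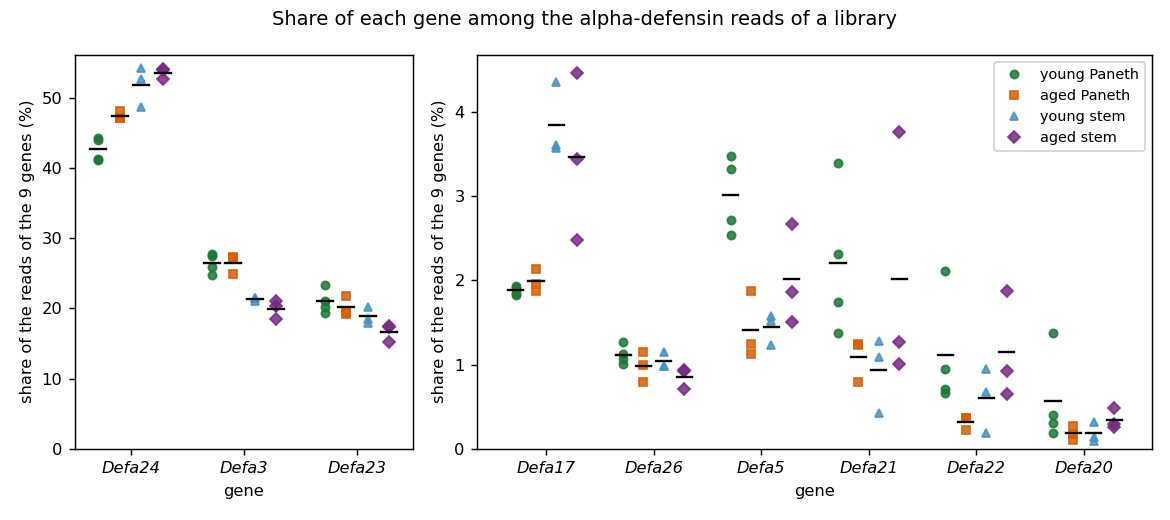
Share of each gene among the reads of the 9 genes, in percent on a linear axis from 0, with 1 symbol per library, a colour and shape per group, and a black bar at the group mean; the 3 most abundant genes are in the left panel and the other 6 in the right. Defa5, Defa21 and Defa22 have all aged Paneth points below all young Paneth points, and Defa24 has all aged Paneth points above the young ones.

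Reads per 100 reads of another gene give the same shift without a total. For each 100 reads of Defa24 there were 7.07 ± 1.09 reads of Defa5 in young (SD, n = 4) and 2.98 ± 0.864 in aged Paneth libraries (SD, n = 3). For Defa22 there were 2.62 ± 1.69 and 0.669 ± 0.178. The 6.16 to 8.41 reads of Defa5 in young libraries did not overlap the 2.35 to 3.97 of aged ones. Set against Defa17, Defa5 had 131 to 182 reads per 100 in young Paneth libraries, more reads than Defa17 in all 4. In aged ones it had 57.8 to 99.5, fewer reads than Defa17 in all 3. These reads are not scaled to transcript length. Per kilobase, Defa5 was the higher in aged Paneth library 2, at 117.1 beside 111.3 CPM per kb. Defa17 per 100 reads of Defa3, the pair with the same coding sequence, was 7.11 ± 0.321 in young and 7.52 ± 0.308 in aged libraries.

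Rows of the family outside the 9 were looked at next. Defa2, 99.7% identical to Defa20 in coding sequence, held 1.69% ± 1.40 of all alpha-defensin reads in young (SD, n = 4) and 0.495% ± 0.199 in aged Paneth libraries (SD, n = 3), without overlap. The next rows were chosen after their values were seen and are listed in the files under other symbols, matched by Entrez identifier. Defa36 (Gm21498), 98.6% identical to Defa5, held 3.45% ± 0.478 in young and 2.22% ± 0.303 in aged Paneth libraries. Defa34 (Gm15315), also 98.6% identical to Defa5, held 0.155% ± 0.0364 and 0.0409% ± 0.0230. Neither overlapped between the ages. Defa35 (Gm10104), 98.9% identical to Defa5, held 0.230% ± 0.0222 and 0.148% ± 0.0538, with overlap. Copies this alike can share reads with Defa5. Defa30 (Gm15284), 98.6% identical to Defa24 and the most abundant row outside the 9, held 20.3% ± 1.89 and 23.98% ± 2.06, with overlap.

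With rows of at least 88% coding identity to a gene of a set added to that set, the set of Defa20, Defa21 and Defa22 held 2.18% to 7.54% of family reads in young and 0.991% to 1.80% in aged Paneth libraries. That of Defa5 held 4.76% to 6.35% in young and 2.81% to 3.82% in aged ones. The set of Defa3, Defa17, Defa23, Defa24 and Defa26 held 66.2% to 74.4% in young and 76.1% to 80.1% in aged ones. None of these 3 overlapped between the ages. The other 19 rows of the family summed to 18.5% to 21.03% in young and 15.9% to 19.3% in aged Paneth libraries, with overlap. Of these, 8 had at least 300 reads in the Paneth libraries, and all 8 had a lower mean share in aged libraries, 3 of them without overlap. The 19 join rows below 88% identity and rows for which no coding identity was computed, and the latter hold most of these reads. Whether such rows belong to a set was not tested, so the totals of the 3 sets may leave out related rows.

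Markers of other cell types also varied between the Paneth libraries. The 12 enterocyte markers (absorptive cells of the villus, such as Alpi, Fabp1 and Apoa4) were all detected and had a summed level of 8077, 1966, 3810 and 20881 CPM in young Paneth libraries 1 to 4 and of 7920, 32773 and 26644 CPM in aged Paneth libraries 1 to 3. In stem libraries the sum was 589.8 to 879.2 CPM. The 3 Paneth libraries with the most enterocyte RNA, young 4, aged 2 and aged 3, were those with the least alpha-defensin RNA, at summed levels of 4550, 2354 and 7259 CPM beside 17973 to 52812 CPM in the other 4. Across the 7 libraries the log2 levels of these sums had a Pearson r of -0.815, as a description. All 12 enterocyte markers had higher estimates in aged Paneth cells, and 0 passed the threshold. Of 10 markers of goblet cells 9, and of 9 tested markers of enteroendocrine cells 7, had estimates below 0, and 0 passed in either list.

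The other 10 Paneth markers, alpha-defensins excluded, summed to 4374 to 45826 CPM in young and 1973 to 17343 CPM in aged Paneth libraries, with none at 0. Without young 4, aged 2 and aged 3, an alternative chosen after seeing the data, the median log2 change of the 9 genes was -1.11 in place of -1.69, and 0 were called. That fit has 3 young libraries and 1 aged one, whose spread is assumed to be that of the young. The part of enterocyte RNA in the levels was not tested.

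The share of Defa5 among the reads of the 9 genes also went with enterocyte RNA over the 7 libraries, with a Pearson r of -0.637 against its log2 level, as a description, and the part of that RNA in the shares was not tested. By library, among the 4 with less of it, Defa5 made up 2.72% to 3.47% of the reads of the 9 genes in the young and 1.24% in the aged library. Among the 3 with more, which hold 1 young library, it made up 2.54% in the young library and 1.13% and 1.87% in the aged ones. For Defa24 the values were 41.3% to 44.3% against 47.1%, and 41.1% against 47.1% and 48.1%. For the sum of Defa20, Defa21 and Defa22 they were 2.75% to 6.88% against 1.86%, and 2.22% against 1.12% and 1.79%.

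**Figure D4:**
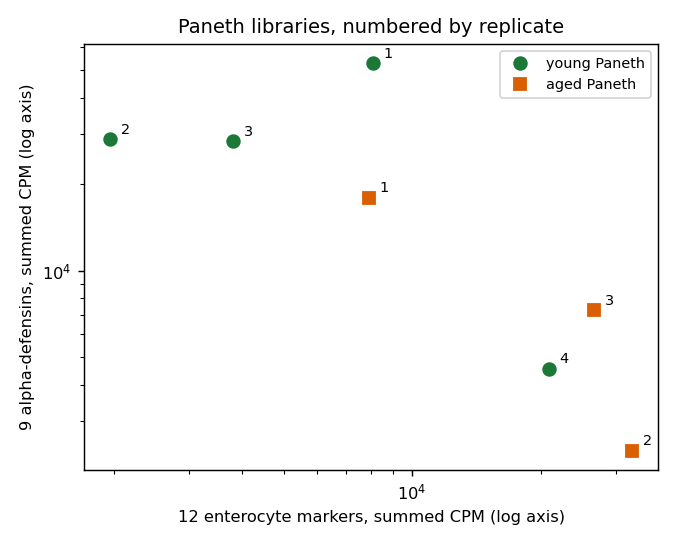
Summed CPM of the 9 alpha-defensins against summed CPM of 12 enterocyte markers in the 7 Paneth libraries, on log axes, with each point numbered by replicate. Young 4, aged 2 and aged 3 lie at the lower right, and aged 1 has about the enterocyte level of young 1 (7920 and 8077 CPM) with 17973 against 52812 CPM of alpha-defensins.

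Paneth cells were compared with stem cells at each age, over 16960 genes. In young mice all 9 genes were higher in Paneth cells and all 9 passed (edgeR, adjusted p 0.000216 to 0.00161), where 19.6% of genes tested were called higher. The groups of all 9 were apart, as they were, with Paneth cells higher, for 19.1% of genes. The log2 differences ran from 3.75 ± 0.78 for Defa17, a 13.4-fold difference, to 6.47 ± 1.25 for Defa20, an 88.5-fold difference. Defa24 was 23.2-fold, Defa3 33.7-fold and Defa5 60.7-fold higher. The median was 5.07, beside -0.07 over all genes. With library totals in place of TMM the median over all genes moved to -1.30, with 1072 genes called higher and 10046 lower (3323 and 3601 with TMM), and the 9 genes were still called higher.

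In aged mice all 9 genes had higher estimates in Paneth cells, and 6 passed, where 20.4% of genes tested were called higher. The same 6 had groups that did not overlap, as 25.9% of genes had in this direction. Defa3 rose above stem cells by a log2 difference of 3.80 ± 0.83, Defa26 and Defa23 by 3.58 ± 0.87 and 3.58 ± 0.80, Defa24 by 3.15 ± 0.84, Defa17 by 2.73 ± 0.76 and Defa5 by 2.62 ± 0.81. The 3 that did not pass were Defa20 at 2.54 ± 1.09 (edgeR adjusted p 0.0737), Defa21 at 2.24 ± 1.00 (adjusted p 0.0862) and Defa22 at 1.29 ± 0.98 (adjusted p 0.313). Aged Paneth library 2, and for Defa22 also aged Paneth library 3, lay inside the aged stem range. Leaving out 1 library moved the count between 4 and 8 of 9: it was 4 without aged Paneth 1 or without aged stem 3, and 8 without young Paneth 4. With library totals 1799 genes were called higher and 6108 lower (3452 and 3619 with TMM), and 6 of the 9 genes were called.

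In stem cells no change in level with age passed for any of the 9 genes. Of the 9 genes 4 had higher and 5 lower estimates in aged stem cells, 0 passed (0.0% of 17701 genes tested passed), and 0 had an unadjusted p under 0.05, as 8.34% of genes had. DESeq2 called 0 of the 9 too. The log2 changes lay between -0.47 ± 0.33 for Defa17 and 1.12 ± 1.05 for Defa21, with edgeR adjusted p of 0.709 to 0.96. Defa21 was at 3.92, 12.6 and 12.8 CPM in young and at 46.3, 15.1 and 3.24 CPM in aged stem libraries, a wider range in the aged group. Aged stem 3 had the least of all 9 genes but Defa20 and Defa22, for which young stem 1 was lower. The direction rested on single libraries: 8 of 9 were higher without aged stem 3 and 2 of 9 without aged stem 1. Without young stem 1 the fit called 1332 genes, none of them among the 9.

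**Figure D5:**
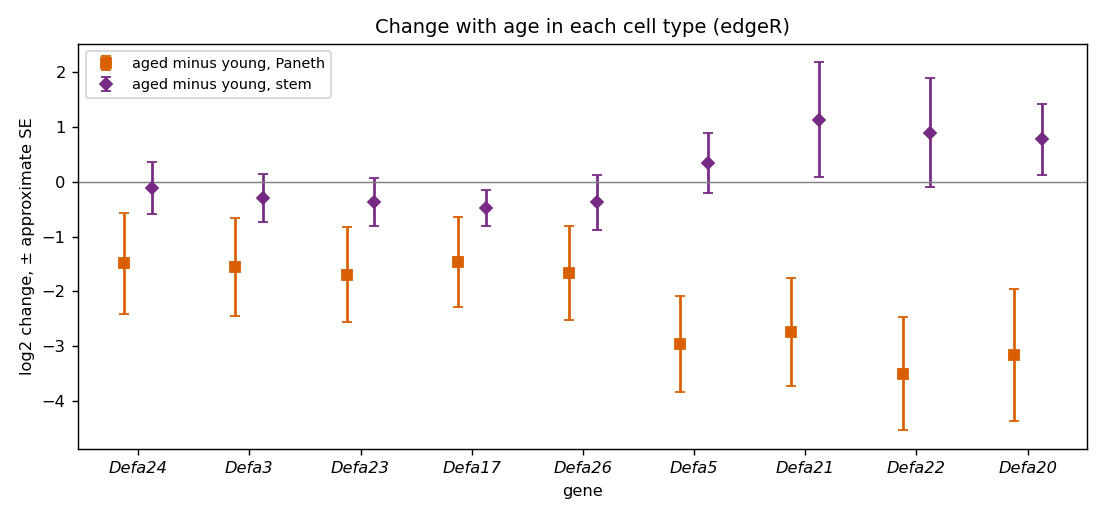
Log2 change with age (aged minus young) of each gene in Paneth cells and in stem cells, from separate edgeR fits, as points with bars of 1 approximate standard error and a grey line at 0. All Paneth estimates lie below 0, from -1.47 to -3.50, and the stem estimates lie between -0.47 and 1.12.

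The difference between the age changes of Paneth and stem cells was tested over 16960 genes. All 9 estimates were negative, from -1.02 ± 0.98 for Defa17 to -4.40 ± 1.39 for Defa22, and 0 of 9 passed, as did 0.0% of all genes (edgeR adjusted p 0.45 to 0.762). Defa5 (-3.31 ± 1.08), Defa20 (-3.92 ± 1.49), Defa21 (-3.88 ± 1.38) and Defa22 had an unadjusted p under 0.05, where 4.5% of all genes were lower at that level. DESeq2 called 0 of 9. Without young stem 1 the fit called 17 genes, 5 higher and 12 lower; it called 90 without aged Paneth 1 and 27 without young Paneth 4, with 0 of the 9 among them each time.

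The reads in stem libraries did not hold the mix of the Paneth libraries. Defa17 made up 3.57% to 4.35% of the reads of the 9 genes in young stem and 2.48% to 4.46% in aged stem libraries, above all Paneth libraries (1.83% to 2.13%). Per 100 reads of Defa3 there were 18.0 ± 1.97 reads of Defa17 in young and 17.2 ± 3.90 in aged stem libraries (SD, n = 3 each), beside 7.11 and 7.52 in Paneth libraries. Defa24 made up 48.7% to 54.2% in stem libraries, above all Paneth libraries, and Defa3 18.5% to 21.5%, below all of them. The kits differed between the cell types, so the part of kit in this difference cannot be told apart from that of cell type. The 10 stem markers (Lgr5, Ascl2, Olfm4 and others) summed to 3923 to 6165 CPM in stem and 555.7 to 1965 CPM in Paneth libraries, and the 10 Paneth markers to 561.7 to 1427 CPM in stem libraries, so each cell type carried some RNA of the other's markers.

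The 9 genes moved closely together across libraries. Over the 7 Paneth libraries the Pearson r of log2(CPM + 1) lay between 0.992 and 0.999 for the 10 pairs within the set of Defa3, Defa17, Defa23, Defa24 and Defa26. It lay between 0.984 and 0.989 for the 3 pairs of Defa20, Defa21 and Defa22, and between 0.912 and 0.990 for the 23 pairs across sets or with Defa5. Over the 6 stem libraries the pairs across sets were looser, at 0.400 to 0.949, beside 0.892 to 0.996 and 0.951 to 0.984 within the sets. Genes of a set share reads as well as libraries, and the points share their scaling, so these are descriptions.

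By the same measure, with the summed 9 genes over the 7 Paneth libraries and 10458 other genes ranked, the most alike were Nucb2 (r of 0.997), which encodes nucleobindin-2, Lyz1 (0.994), the Paneth cell lysozyme, Clps (0.993), which encodes the colipase cofactor of pancreatic lipase, Pla2g2a (0.992), a secreted phospholipase that kills bacteria, and Lyz2 (0.990), the macrophage lysozyme and a close copy of Lyz1. Mmp7 ranked 18 (0.978). Over all 13 libraries they were Lyz1 (0.996), Itln1 (0.995), the lectin intelectin-1, Pla2g2a (0.992), Clps (0.991) and the lipase gene Pnliprp2 (0.984). Libraries differed in the level of Paneth markers as a whole, and the part of this in these correlations was not tested.

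Of 14 genes for activation of defensins and partners in the granule, 13 were tested with age in Paneth cells: 10 had lower and 3 higher estimates, with a median of -1.59. Of these 1 passed, Mptx2, a mucosal pentraxin, which fell from 631.0 ± 385.7 to 5.04 ± 1.95 CPM (edgeR log2 change -6.97 ± 0.73, adjusted p 0.0390). Mptx1 was at 101.3 ± 70.1 and 1.14 ± 0.792 CPM (adjusted p 0.0539). Mmp7, which activates the defensins, was at 263.4 ± 176.4 and 52.1 ± 41.3 CPM (log2 change -2.33 ± 0.77, adjusted p 0.534). Lyz1 was at 14651 ± 10606 and 4893 ± 4612 CPM (-1.57 ± 0.96, adjusted p 0.658). The lectin gene Reg3g was at 66.1 ± 12.9 and 4.71 ± 4.66 CPM, and Reg3a, of the same family, was higher in aged cells at 4.40 ± 5.40 and 42.0 ± 34.8 CPM, and neither passed.

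Of 16 regulators of Paneth cells, 12 had lower and 4 higher estimates with age in Paneth cells and 0 passed, with a median of -0.15. Gfi1, a transcription factor of the secretory lineage, was at 3.84 ± 2.29 and 0.416 ± 0.212 CPM (edgeR adjusted p 0.412). Tcf7l2, which encodes the TCF factor of the crypt and was chosen after its values were seen, was at 110.7 ± 15.8 and 103.4 ± 3.81 CPM. Of 13 tested genes of granule secretion and autophagy 10 had lower estimates and 0 passed. In stem cells 0 genes of these 3 lists passed. The beta-defensins, the related family made by many epithelia, were near the detection limit: 0 of 43 listed passed the filter on low counts, and they summed to 1.40 to 5.25 CPM in Paneth libraries.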

How the data were processed

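RNA-seq of 13 libraries was used, grouped by the labels. The authors deposited a table per library with a column named FPKM, whose values look like estimated counts (reads per gene, fractions included). The submitters' processing notes name mm10 and DESeq, for unstated steps. For the aligner, the counter, the annotation and strand use, the sources used here give nothing. The 36186 rows of each table were summed by Entrez identifier to 35791 genes and rounded. Tests were edgeR 4.0.16 (R 4.3.3) quasi-likelihood tests with TMM scaling, filterByExpr and Benjamini-Hochberg adjustment over all genes tested. Age was fitted within a cell type, and the other comparisons in 1 model of 13 libraries. The SE of a log2 change is its size over the root of F, and ± beside CPM or shares is the SD. DESeq2 1.42.0 and the other alternatives are given in the closing section. Sequences came from GENCODE M21 and RefSeq; identities were computed with Biopython 1.88. The 9 genes, the gene lists and the tests were chosen with earlier results of these data known. All 9 are named in every comparison. Of other rows whose deposited symbol starts with Defa, Defa2 alone is named for holding at least 1% of the family's Paneth reads. Of each list up to 4 genes of smallest p could be named, with Mmp7 and Lyz1 always. Tcf7l2 and the rows Defa30, Defa34, Defa35 and Defa36 were chosen after their values were seen. Likeness was ranked among genes averaging 5 CPM or more, with a pseudocount of 1. Alpha-defensin rows were left out, as were symbols matching name patterns for predicted genes, clones, pseudogenes and small RNAs. The patterns also removed every symbol that starts with Rn. On simulated counts the Paneth age fit recovered 2% of 100 genes changed by a fold of 2 and 41% of 100 changed by a fold of 4. For the stem fit these were 41% and 98%, and for the difference 1% and 23%, with 1, 7 and 2 unchanged genes called.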

Additional observations from a re-analysis of the deposited data

How the results depend on the processing

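Direction was kept by all 9 genes in Paneth age, in both Paneth minus stem comparisons and in the difference of age changes under every alternative run. In stem age 6 of the changes reversed when 1 library was left out, Defa5 and Defa21 without aged stem 1 and Defa3, Defa23, Defa24 and Defa26 without aged stem 3. With each library left out in turn Defa5 ran from -0.3233 to 0.7659, Defa21 from -0.1018 to 1.6339, Defa3 from -0.5488 to 0.0994, Defa23 from -0.6513 to 0.0263, Defa24 from -0.4019 to 0.2955 and Defa26 from -0.6705 to 0.0746 on the log2 scale. The cause was not tested.

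Counts of genes called moved more than calls of the 9. In Paneth age 2 genes passed with the settings of the report, 12 with library totals, 11 without a count filter, 114 with DESeq2 (2 of the 9), 47 with all 13 libraries in 1 fit, and 0 to 20 (0 of the 9) with 1 library left out. In stem age they were 0, and 11 without a filter, 123 with DESeq2, 5 in 1 fit, and 0 to 1332 with 1 library left out. In the difference they were 0, and 15 with library totals, 6 without a filter, 100 with DESeq2, 1 without the 3 Paneth libraries of high enterocyte level, and 0 to 90 with 1 library left out. In Paneth minus stem young 6924 passed, and 11118 with library totals. In Paneth minus stem aged 4 to 8 of the 9 passed with 1 library left out.

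Same-numbered libraries showed no common deviation: their correlations ran from -0.462 to 0.301 over 12 pairs. Young and aged libraries among these pairs cannot come from the same mouse. With so few libraries in a group, the check cannot exclude a pairing of Paneth and stem libraries. With the replicate number as a block 0 genes passed in Paneth age, 15 in stem age and 8 in the difference, 0 of the 9 in each, and 8 of the 9 in Paneth minus stem aged. Libraries correlated best with their own number in 2 of 3 pairs of aged Paneth and aged stem, 1 of 3 of young and aged stem, 0 of 3 of young and aged Paneth, and 0 of 3 of young Paneth and young stem.

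Without the 3 rows of most reads in the total, the 9 genes took 3.67% of young Paneth reads in place of 1.82%. Rounding rows left the shares within 1 SD. Splitting of reads between copies, and the 3 to 4 libraries in a group, limit every value above.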
